A study of Mus musculus with 8 samples.

Results

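Cytosolic ribosomal protein genes encode the proteins of the ribosome that translates cytoplasmic mRNA. They were collected by name from the design of a mouse oligonucleotide array: every gene name made of Rpl or Rps and a number, with an a, l, x or y or a further digit allowed after it, together with Rplp0, Rplp1, Rplp2 and Rpsa. The pattern took 81 of the 21512 gene names on the array, 49 for the large subunit and 32 for the small subunit. The 81 genes had 135 probes, and each gene was read from its brightest probe over all arrays. The pattern took in the paralogues Rpl3l, Rpl22l1, Rps27l and Rpl7l1 and left the mitochondrial ribosomal proteins out.

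RNA came from whole hearts of 8 male mice aged 12 weeks, each on 1 single-colour array. The 4 PKR2 hearts were from mice that overexpress PKR2, taken to mean prokineticin receptor 2, which binds the secreted prokineticins and signals through G proteins. The 4 WT hearts were from wild-type mice of the same sex and age, with no treatment given for either group. The promoter of the transgene, its cell type, the number of lines and the strain are not given in the sources used here. Nothing in the labels says how the mice were bred or caged, so a p-value sets a difference against the spread between these arrays alone.

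A ribosome is built from a small subunit, which holds the mRNA and the decoding site, and a large subunit, which joins amino acids and carries the exit tunnel. Most ribosomal proteins are made in equal amounts, and their genes are active in all cells. Many of their mRNAs begin with a C followed by a run of pyrimidines, the terminal oligopyrimidine (TOP) motif, through which the kinase complex mTORC1 and the RNA-binding protein LARP1 set how strongly they are translated. In the heart, growth of the cardiomyocyte goes with more ribosomes, and Rpl3l is a form of Rpl3 known for its restriction to heart and skeletal muscle.

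The start sites of several members are shown to set those with a pyrimidine run at or near the annotated start beside those without one. Sequences are from RefSeq on the build GRCm38.p6, read 5′ to 3′ on the gene's strand, with 20 bases before the annotated start and 20 from the start on. Capitals mark a C followed by 4 or more bases that are each C or T, where such a run began within 10 bases of the start. The first group holds members with such a run. It spans the start in Rplp2, Rps6, Rps21, Rps24, Rps27 and Rpl14, ends before it in Rpl10a and begins after it in Rpl3l. Neither Rpl10a nor Rpl3l thus begins with a TOP motif at this start, and nor does Rps24, whose start base is a T.
Rplp2: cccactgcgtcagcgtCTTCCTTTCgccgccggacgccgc
Rps6: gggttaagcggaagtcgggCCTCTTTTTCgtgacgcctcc
Rps21: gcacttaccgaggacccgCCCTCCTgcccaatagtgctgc
Rps24: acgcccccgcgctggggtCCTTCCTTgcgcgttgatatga
Rps27: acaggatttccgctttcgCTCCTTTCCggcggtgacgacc
Rpl14: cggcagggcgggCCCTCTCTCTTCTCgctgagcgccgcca
Rpl10a: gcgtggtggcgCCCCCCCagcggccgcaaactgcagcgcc
Rpl3l: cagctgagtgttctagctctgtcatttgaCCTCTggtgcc
The second group holds 4 members with no such run beginning within 10 bases of the start, though Rplp0 and Rps16 have one farther out.
Rplp0: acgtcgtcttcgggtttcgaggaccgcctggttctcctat
Rpsa: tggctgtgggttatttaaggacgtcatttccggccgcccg
Rpl9: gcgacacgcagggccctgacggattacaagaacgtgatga
Rps16: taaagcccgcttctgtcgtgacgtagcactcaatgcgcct
The windows lie at chr7:141447631-141447670 (+ strand, Rplp2), chr4:86857348-86857387 (- strand, Rps6), chr2:180257359-180257398 (+ strand, Rps21), chr14:24490658-24490697 (+ strand, Rps24), chr3:90213629-90213668 (- strand, Rps27), chr9:120571497-120571536 (+ strand, Rpl14), chr17:28328451-28328490 (+ strand, Rpl10a) and chr17:24727806-24727845 (+ strand, Rpl3l). Those of the second group lie at chr5:115559447-115559486 (+ strand, Rplp0), chr9:120127746-120127785 (+ strand, Rpsa), chr5:65391412-65391451 (- strand, Rpl9) and chr7:28350669-28350708 (+ strand, Rps16). Each window spans the annotated transcription start, with 20 bases of the first exon. Rps21, Rps24, Rpl10a and Rpl3l each had a further listed start, not printed here.

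The RefSeq table held a start for 61 of the 81 members. Of these, 13 had a start base that was itself a C followed by 4 or more pyrimidines, with or without further pyrimidines before it (21.3%, against 3.01% of 27025 genes with a listed start). With the run allowed to begin within 10 bases of the start, 36 members had it (59.0%, against 32.6% of all genes). CCGGAAG, the core that ETS family factors bind, lay on either strand within the 300-base window around a start in 25 members (41.0%, against 9.93% of all genes). Its reverse complement CTTCCGG can overlap the pyrimidine run. A match describes letters only, and annotated starts can lie some bases away from the start in use.

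Levels below are log2 signal minus the array's 75th percentile over non-control probes, so a level of 0 is that percentile. Brightness depends on the probe as well as on the transcript, so levels of different genes are not set against each other. All 81 member probes were well above background on all 8 arrays, and none was saturated on any array. Mean levels ran from -0.26 to 8.75 with a median of 6.01, and 79 of the 81 lay above the 75th percentile, against 52.3% of the 15748 features tested. The probe's accession matched the RefSeq gene of that name for 76 members and had no entry for 5. In the array's design 80 of the probes lay on their gene's chromosome, and that of Rpl10, an X-linked gene, lay on chromosome 13. Ribosomal protein genes have many processed pseudogenes of nearly the same sequence, so each level may hold transcripts of such copies.

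Arrays differed in ways that bear on bright probes. The 75th percentile of signal ran from 82.2 to 736 on PKR2 arrays and from 38.1 to 648 on WT arrays. PKR2 4, WT 2 and WT 4 were scanned at a single range, while on the other 5 arrays 43 to 62 of the 81 member probes were read from the low scan of an extended range. The array's only Prokr2 probe was well above background on 0 of the 8 arrays, so it gives no check of the genotype labels. Cardiomyocyte markers were high in every heart, with a mean level of 7.99 to 8.38 in PKR2 hearts and 7.94 to 8.20 in WT hearts.

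The study asked how PKR2 overexpression changes the heart transcriptome. No ribosomal protein gene passed the test between PKR2 and WT hearts: 0 of 81 had an adjusted p under 0.05 (limma, Benjamini-Hochberg over 15748 features), where 0% of all features passed. The smallest adjusted p of a member was 0.99997. At an unadjusted p under 0.05 there were also 0 members by their brightest probes, against 1.46% of features called lower and 0.959% called higher. On these probes the values of PKR2 and WT hearts overlapped in all 81 genes. Over all features, PKR2 hearts lay below WT hearts on every array in 0.914% and above them in 0.705%.

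Differences were small against the spread of the hearts. They ran from -0.33 (Rps21) to 0.13 (Rplp0) on the log2 scale, and 43 of the 81 were under 0.1 in size. The median SD over members was 0.26 among PKR2 hearts and 0.29 among WT hearts, and the median range of a member over the 8 hearts was 0.76. The 95% interval of the difference held 0 in all 81 genes. It lay within 0.5 to either side of 0 in 24 genes and within 1 in 77, so changes beyond 1 log2 unit lie outside the intervals of all members but Rpl21, Rpl22l1, Rpl39 and Rps21. Smaller changes could not be resolved with 4 arrays a group, whose intervals had a median half-width of 0.47.

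The members leaned to lower values in PKR2 hearts, 65 lower and 16 higher with a median of -0.090, but to higher values (2 and 8 lower) under both forms of normexp background correction, and 15 lower with array position as a covariate. Among all features 52.0% were lower and the median was -0.0081. Bright features leaned lower too: of the 1575 above the 90th percentile of mean level, 63.9% were lower with a median of -0.039, and over all features the difference had a Spearman rho of -0.21 with the level, a description across features that share arrays. The large subunit had 40 of 49 genes lower with a median of -0.081, against 2 lower and a median of 0.34 under normexp correction. The small subunit had 25 of 32 genes lower with a median of -0.13, against 0 lower and a median of 0.31 under normexp correction. With array position as a covariate both medians lay above 0 as well, at 0.24 and 0.14. Of the members with a pyrimidine run near the start, 33 of 36 were lower with a median of -0.11 (0.29 under normexp correction), and of those without it 17 of 25 with a median of -0.047 (0.36 under normexp correction and 0.0052 after quantile normalization). With array position as a covariate the medians were 0.19 with the run and 0.16 without it, so their order turned. The contrast between these sets was not tested. In whole-heart RNA, fewer cells of a type and less RNA per cell cannot be told apart.

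**Figure D1:**
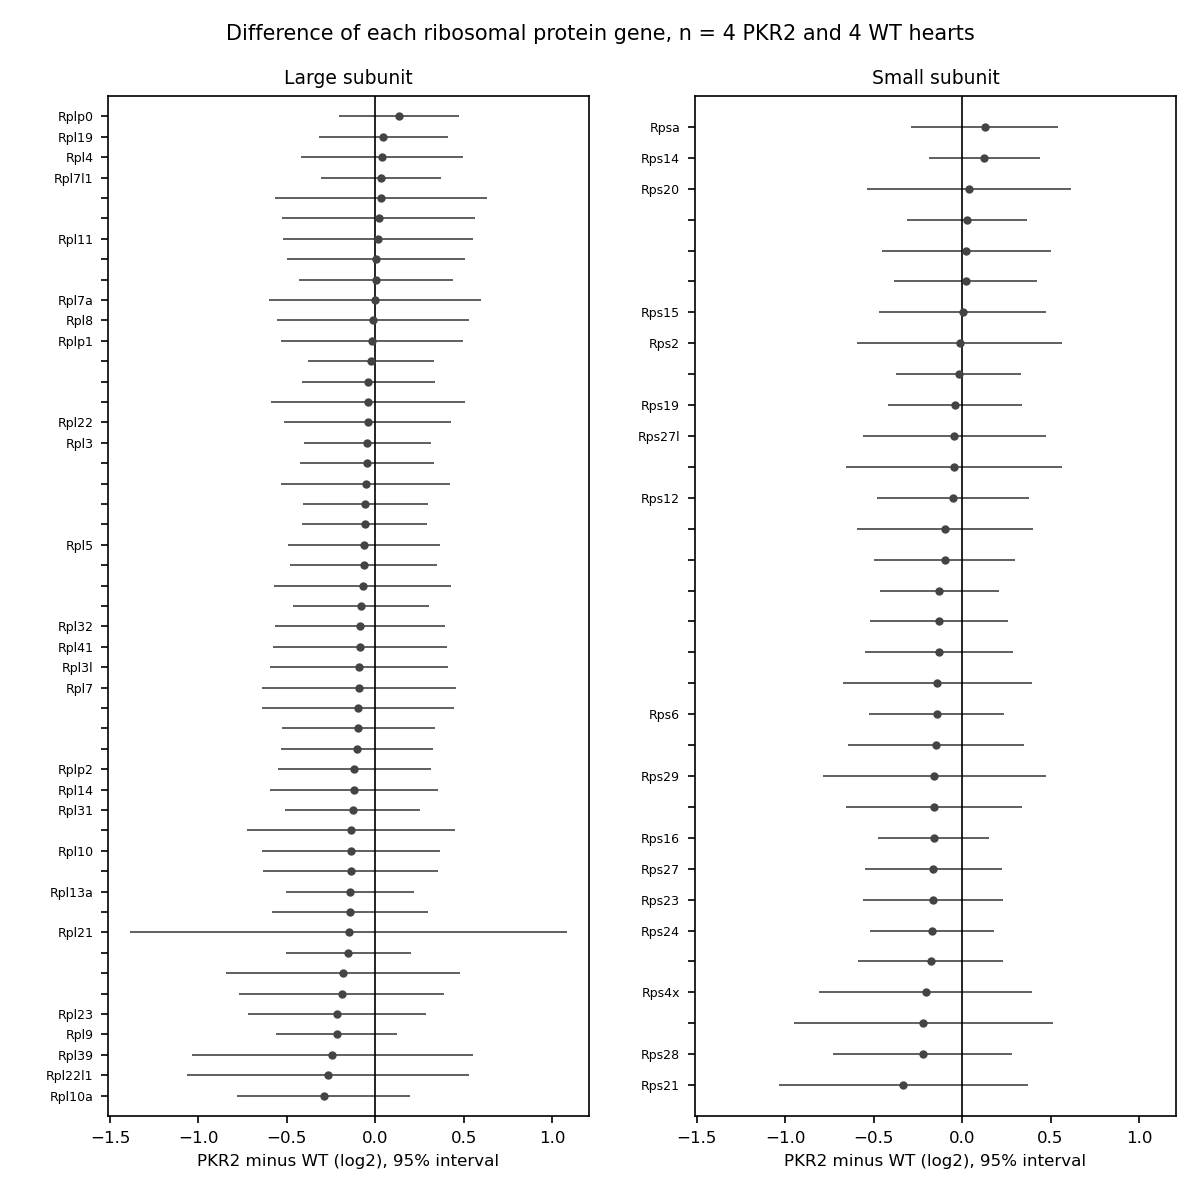
PKR2 minus WT difference of each of the 81 genes on the log2 scale (points) with its limma 95% interval (bars), n = 4 PKR2 and 4 WT hearts, sorted by size within the large and the small subunit, with names at genes the text describes. Every interval holds 0, and differences run from -0.33 (Rps21) to 0.13 (Rplp0). Signs turn for most genes under normexp background correction.

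The 6 members with lower PKR2 values and the smallest p were Rpl9, Rpl10a, Rps16, Rps24, Rps21 and Rps28. Rpl9, a large-subunit protein, read 6.10, 6.23, 6.10 and 6.18 in PKR2 hearts, against 6.19, 6.30, 6.31 and 6.68 in WT hearts. The overlap came from WT 1, which lay below PKR2 2, and WT 4 was the highest heart. The difference was -0.22 (95% interval -0.56 to 0.12), with an unadjusted limma p of 0.185, the smallest of all members.

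Rpl10a, a protein of the mobile L1 stalk of the large subunit, read 2.90, 3.31, 3.04 and 3.07 in PKR2 hearts, against 2.92, 3.32, 3.31 and 3.93 in WT hearts. WT 4 was the highest heart, and the other 3 WT hearts lay within the PKR2 range or just above it. The difference was -0.29 (95% interval -0.78 to 0.20). Rps16, a small-subunit protein with a tail that reaches the decoding centre, read 6.91, 7.10, 6.81 and 6.75 in PKR2 hearts, against 6.996, 7.05, 7.05 and 7.13 in WT hearts. The WT hearts sat close together, with an SD of 0.057, and PKR2 2 lay among them while the other 3 PKR2 hearts lay below all 4. The difference was -0.16 (95% interval -0.48 to 0.15).

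Rps24, a small-subunit protein whose human gene is mutated in some cases of Diamond-Blackfan anaemia, read 6.08, 6.36, 6.22 and 6.23 in PKR2 hearts, against 6.16, 6.30, 6.49 and 6.63 in WT hearts. Its hearts overlapped, and WT 3 and WT 4 were the highest. The difference was -0.17 (95% interval -0.52 to 0.18). Rps28, a small protein at the mRNA exit of the small subunit, read 6.63, 7.45, 6.96 and 6.79 in PKR2 hearts, against 6.73, 7.37, 7.42 and 7.19 in WT hearts. The highest heart was PKR2 2 and the lowest PKR2 1, so both extremes were in the same group. The difference was -0.22 (95% interval -0.73 to 0.28).

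Rps21, a small-subunit protein, had the largest difference of all members in the brightest probe. It read 5.77, 6.84, 6.23 and 6.18 in PKR2 hearts, against 6.32, 7.13, 6.998 and 5.91 in WT hearts. WT 2, WT 3 and PKR2 2 were high, and PKR2 1 and WT 4 were low. The difference was -0.33 (95% interval -1.04 to 0.37), and its other probes gave 0.013 and -0.50.

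Of the 16 members with higher PKR2 values, Rps14, Rplp0, Rpsa, Rpl19, Rpl7l1 and Rpl4 had the smallest p. Rps14, a small-subunit protein whose human gene is lost in the 5q- form of myelodysplastic syndrome, read 7.70, 7.56, 7.72 and 7.61 in PKR2 hearts, against 7.58, 7.36, 7.46 and 7.67 in WT hearts. It had the narrowest range over the 8 hearts, 0.36, and WT 2 and WT 3 were the lowest. The difference was 0.13 (95% interval -0.19 to 0.44).

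Rplp0, the anchor of the ribosomal stalk and a common reference gene in quantitative PCR, read 3.93, 3.77, 3.56 and 3.62 in PKR2 hearts, against 3.70, 3.67, 3.37 and 3.59 in WT hearts. PKR2 1 was the highest heart and WT 3 the lowest, and the other 6 hearts overlapped. The difference was 0.13 (95% interval -0.21 to 0.48). Some of its replicate spots carried outlier flags on 6 arrays and were left out.

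Rpsa, a small-subunit protein first described as a precursor of the laminin receptor, read 3.82, 3.46, 3.14 and 3.24 in PKR2 hearts, against 3.52, 3.17, 3.15 and 3.32 in WT hearts. PKR2 1 alone reached that height, and without that heart the sign of the difference turned. The difference over all hearts was 0.13 (95% interval -0.29 to 0.54). Rpl19 read 6.31, 6.23, 6.29 and 6.31 in PKR2 hearts, against 6.02, 6.08, 6.26 and 6.60 in WT hearts, with an SD of 0.040 in PKR2 hearts and 0.26 in WT hearts, and a difference of 0.045 (95% interval -0.32 to 0.41).

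Rpl4, a large-subunit protein lining the exit tunnel, read 3.74, 3.24, 2.94 and 3.48 in PKR2 hearts, against 3.50, 3.16, 3.07 and 3.50 in WT hearts. PKR2 hearts held both the highest and the lowest value, and the difference was 0.038 (95% interval -0.42 to 0.50). Rpl7l1, a paralogue of Rpl7, read 1.05, 1.01, 1.22 and 1.18 in PKR2 hearts, against 0.999, 0.93, 1.03 and 1.36 in WT hearts. WT 4 was the highest heart, and the difference was 0.035 (95% interval -0.30 to 0.37).

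The stalk of the large subunit recruits the elongation factors, with Rplp1 and Rplp2 bound in pairs to Rplp0. Rplp1 read 8.46, 9.23, 8.73 and 8.56 in PKR2 hearts, against 8.53, 9.15, 8.95 and 8.43 in WT hearts. Rplp2 read 7.98, 8.60, 8.05 and 7.96 in PKR2 hearts, against 8.18, 8.53, 8.33 and 8.02 in WT hearts. In both genes PKR2 2 and WT 2 were the highest hearts and the groups overlapped, unlike Rplp0, where WT 2 was in the middle. The differences were -0.019 (95% interval -0.53 to 0.49) for Rplp1 and -0.12 (95% interval -0.55 to 0.31) for Rplp2.

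Rps6 is the small-subunit protein phosphorylated by the S6 kinases. It read 5.11, 5.02, 5.10 and 5.20 in PKR2 hearts, against 5.27, 5.02, 5.06 and 5.65 in WT hearts. WT 4 stood above the other 7 hearts, and the difference was -0.14 (95% interval -0.53 to 0.24). Rps19, the gene most often mutated in human Diamond-Blackfan anaemia, read 5.32, 5.76, 5.41 and 5.32 in PKR2 hearts, against 5.23, 5.60, 5.46 and 5.69 in WT hearts. The highest heart was PKR2 2 and the lowest WT 1, and the difference was -0.041 (95% interval -0.42 to 0.34). The other tested probe of Rps19, a dimmer one, read 0.83, 0.97, 0.68 and 0.84 in PKR2 hearts, against 1.44, 1.24, 1.003 and 1.64 in WT hearts. Every PKR2 heart lay below every WT heart on that probe, with a difference of -0.50. Its limma p was 0.017, the smallest of the 125 tested member probes, and 0.99993 after adjustment.

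Rpl5 and Rpl11 travel with the 5S rRNA and bind the p53 regulator MDM2 when ribosome assembly fails. Rpl5 read 6.60, 6.27, 6.49 and 6.57 in PKR2 hearts, against 6.53, 6.39, 6.25 and 7.01 in WT hearts. Rpl11 read 7.45, 8.09, 7.44 and 7.36 in PKR2 hearts, against 7.14, 7.88, 7.91 and 7.34 in WT hearts. WT 4 was the highest heart for Rpl5 and among the lowest for Rpl11, so the pair differed in that heart. The differences were -0.064 (95% interval -0.49 to 0.36) for Rpl5 and 0.017 (95% interval -0.52 to 0.55) for Rpl11.

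Rpl13a and Rpl32 encode large-subunit proteins that often serve as reference transcripts. Rpl13a read 4.87, 4.91, 4.62 and 4.66 in PKR2 hearts, against 4.76, 4.71, 5.003 and 5.16 in WT hearts, and its difference was -0.14 (95% interval -0.50 to 0.22). Rpl32 read 6.17, 6.92, 6.30 and 6.38 in PKR2 hearts, against 6.09, 6.74, 6.63 and 6.66 in WT hearts, and its difference was -0.086 (95% interval -0.57 to 0.40). In Rpl32 the low hearts were WT 1, PKR2 1, PKR2 3 and PKR2 4, so 1 WT heart lay below all 4 PKR2 hearts.

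The 6 brightest probes were those of Rplp1, Rpl7a, Rplp2, Rps23, Rps12 and Rps2. Rpl7a read 8.36, 9.28, 8.43 and 8.27 in PKR2 hearts, against 8.29, 9.04, 8.71 and 8.30 in WT hearts. PKR2 2 was the highest heart for Rpl7a, Rps12 and Rps2, and WT 3 for Rps23. The differences of Rpl7a, Rps12 and Rps2 were -0.0022, -0.050 and -0.015, and that of Rps23, a protein of the decoding centre, was -0.17.

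The 6 dimmest were those of Rpl31, Rpl14, Rpl7l1, Rpl21, Rps15 and Rpl10a. Rpl31 read -0.58, -0.22, -0.21 and -0.27 in PKR2 hearts, against -0.51, -0.21, -0.076 and 0.030 in WT hearts, and its difference was -0.13 (95% interval -0.51 to 0.25). Rpl14 read -0.33, 0.33, -0.071 and -0.35 in PKR2 hearts, against -0.39, 0.26, 0.18 and 0.0075 in WT hearts. PKR2 2 was the highest of all hearts for Rpl14, next to WT 2, and the difference was -0.12 (95% interval -0.59 to 0.35).

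Rpl21 had the widest range of all members on its brightest probe, 2.90. That probe was among the 5 with no RefSeq entry, and the other tested probe of Rpl21 had r of -0.66 with it. The brightest probe read 1.96, 3.45, 2.70 and 2.36 in PKR2 hearts, against 2.91, 4.10, 2.87 and 1.20 in WT hearts. WT 2 and WT 4 held the highest and the lowest value, so the spread lay within the WT group, and the difference was -0.15 (95% interval -1.39 to 1.09). Rps15 read 3.25, 2.84, 2.54 and 2.75 in PKR2 hearts, against 3.15, 2.61, 2.54 and 3.06 in WT hearts, with a difference of 0.0030 (95% interval -0.47 to 0.47).

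Paralogues were set beside their partners by heart. Rpl3l, the striated muscle form, read 4.87, 4.27, 4.07 and 4.10 in PKR2 hearts, against 4.76, 4.08, 4.31 and 4.52 in WT hearts. Rpl3 read 4.46, 4.32, 4.06 and 4.19 in PKR2 hearts, against 4.35, 4.33, 4.05 and 4.47 in WT hearts. PKR2 1 was the highest heart for Rpl3l and WT 4 for Rpl3, and neither gene separated the groups. The differences were -0.090 (95% interval -0.59 to 0.41) for Rpl3l and -0.044 (95% interval -0.40 to 0.31) for Rpl3.

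Rpl22l1, a paralogue of the RNA-binding large-subunit protein Rpl22, had a wide spread and read 4.05, 5.48, 4.66 and 4.33 in PKR2 hearts, against 4.24, 5.32, 5.42 and 4.63 in WT hearts. Rpl22 read 5.08, 5.75, 5.04 and 5.07 in PKR2 hearts, against 4.89, 5.46, 5.38 and 5.38 in WT hearts. PKR2 2 was the highest heart for both genes, and WT 2 was high in both. The differences were -0.27 (95% interval -1.07 to 0.53) for Rpl22l1 and -0.042 (95% interval -0.52 to 0.43) for Rpl22.

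Rps27l, which is known as a p53 target, read 4.74, 5.39, 4.995 and 4.84 in PKR2 hearts, against 4.47, 5.35, 5.27 and 5.03 in WT hearts. Rps27 read 7.43, 7.84, 7.41 and 7.35 in PKR2 hearts, against 7.40, 7.76, 7.87 and 7.64 in WT hearts. PKR2 2, WT 2 and WT 3 were the highest hearts in both. The differences were -0.043 (95% interval -0.56 to 0.47) for Rps27l and -0.16 (95% interval -0.55 to 0.22) for Rps27. Rpl7, the partner of Rpl7l1, read 6.35, 7.30, 6.65 and 6.71 in PKR2 hearts, against 6.37, 7.19, 6.97 and 6.85 in WT hearts and had a difference of -0.091 (95% interval -0.64 to 0.46).

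**Figure D2:**
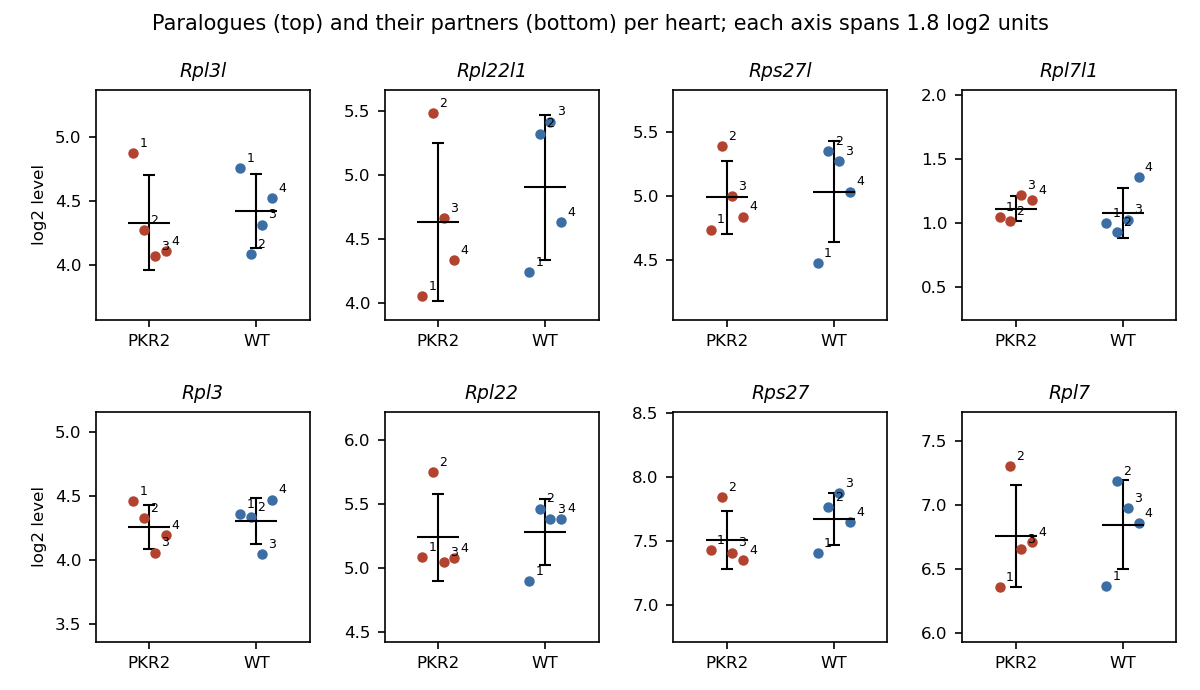
Log2 level (signal minus the array's 75th percentile) of 4 paralogues (top) and their partners (bottom) in each PKR2 heart (left) and WT heart (right), with heart numbers beside the points and bars for mean ± SD, n = 4. All groups overlap, and every axis spans the same number of log2 units.

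Other listed members were Rpl39, a small protein of the exit tunnel, Rpl10, which is needed for the subunits to join, and the X-linked Rps4x. Their differences were -0.24 (95% interval -1.04 to 0.55), -0.14 (95% interval -0.64 to 0.36) and -0.21 (95% interval -0.81 to 0.39). Rpl39 ranged over 1.41 log2 units among the hearts, with PKR2 2 and WT 3 on top and PKR2 1 and WT 1 at the bottom.

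Members moved together over the hearts more than they differed between the groups. Each member was correlated over the 8 arrays with the mean of the other members, which share arrays and scaling with it. The median Pearson r was 0.78, 58.0% of members lay above 0.7, and 11 lay below 0. Of 15667 other features, 19.7% reached 0.7 with the mean of the members. The mean of all features, members included, had r of 0.77 with the mean of the members. Over the other gene lists described below, r ran from -0.57 for ribosome biogenesis to 0.90 for ribosomal proteins outside the pattern. Fibroblast markers were at 0.85, so the movement was not particular to ribosomal protein genes. What moved these genes together was not tested. Taken as deviations from the group means, the members' median r was 0.77. The highest values belonged to Rps29, Rpl32 and Rpl22, with r of 0.99, 0.98 and 0.98.

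The 11 members below 0 were Rpl8, Rps14, Rpl4, Rpl3l, Rps15, Rpsa, Rpl5, Rplp0, Rpl41, Rpl7l1 and Rps6. Rpl8, a protein close to the peptidyl transferase centre, stood farthest from the rest with r of -0.57 and read 6.49, 5.74, 5.84 and 5.88 in PKR2 hearts, against 6.37, 5.71, 5.60 and 6.32 in WT hearts. It was high in PKR2 1, WT 1 and WT 4, of which PKR2 1 and WT 1 were low in most members. Rpl8, Rpl41 and Rps29 are named after their values were seen.

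**Figure D3:**
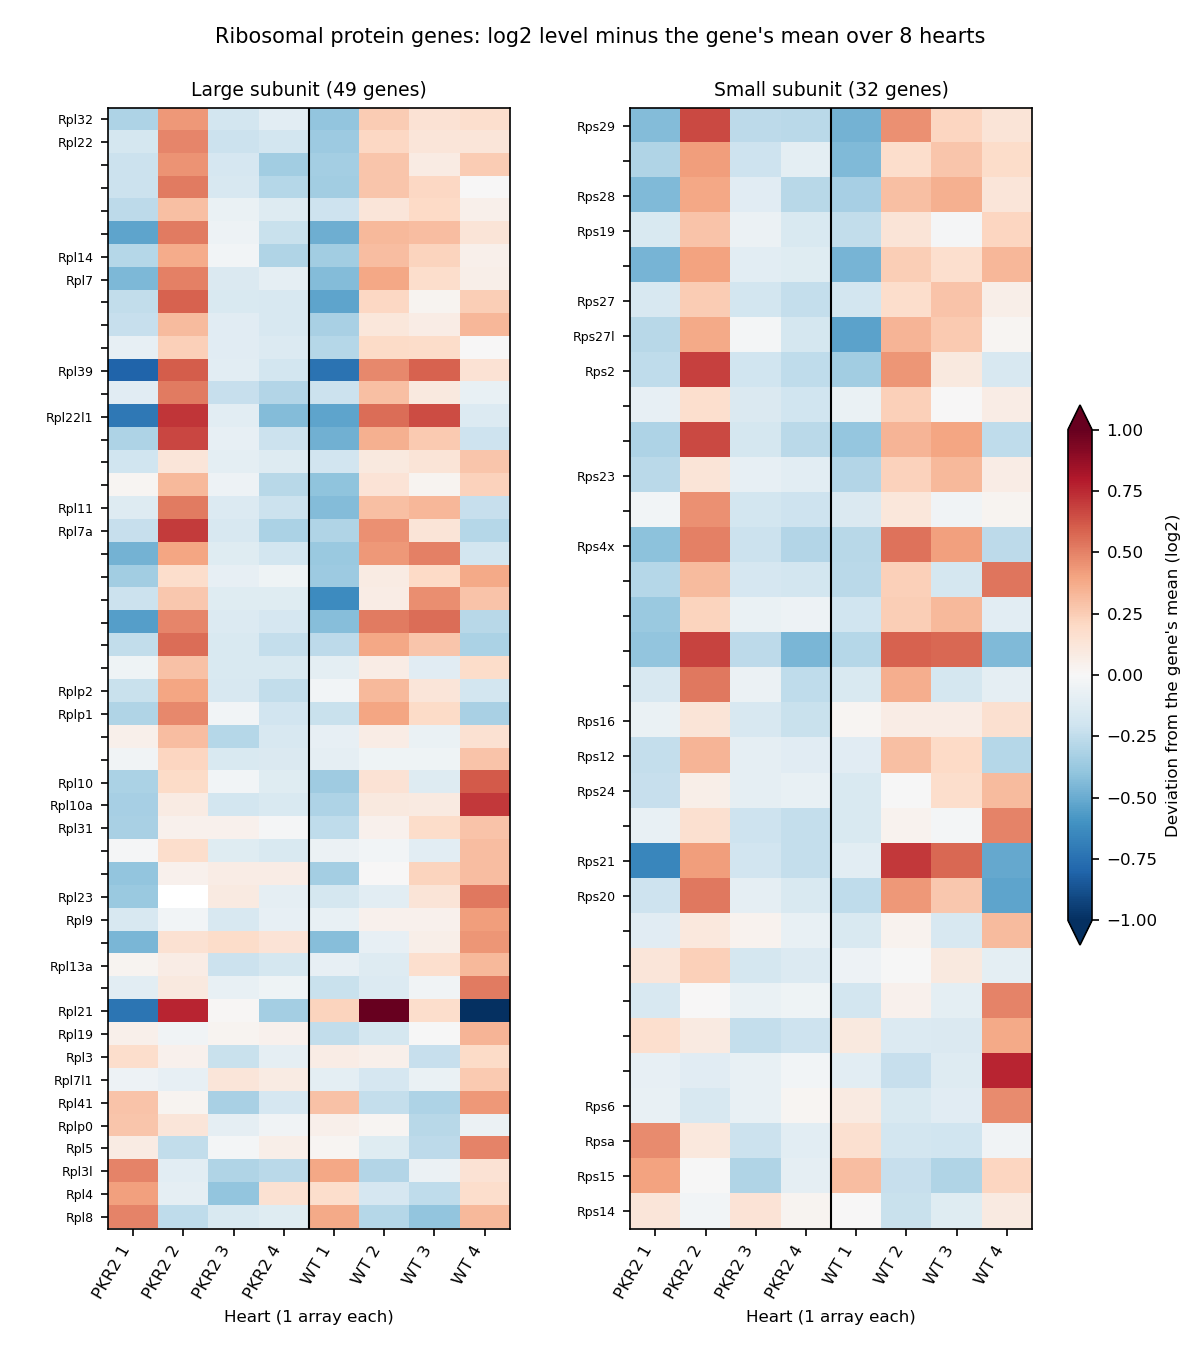
Log2 level of each gene minus its mean over the 8 hearts (colour, cut at 1 to either side), for 49 large-subunit and 32 small-subunit genes (rows, ordered by r with the other members and named where the text describes the gene) in PKR2 hearts 1 to 4 (left of the line) and WT hearts 1 to 4. PKR2 2 is red in most rows with WT 2 and WT 3, PKR2 1 and WT 1 are blue, and the blank cell is Rpl23 in PKR2 2, a flagged spot.

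The mean deviation over the members gave 1 score per heart. It was -0.18, 0.28, -0.12 and -0.15 in PKR2 hearts, against -0.21, 0.16, 0.10 and 0.11 in WT hearts. PKR2 1, PKR2 3, PKR2 4 and WT 1 were low, and PKR2 2 was the highest of all on this scale, under normexp correction and after median scaling. After quantile normalization PKR2 2 was at 0.025 and WT 4 was the highest heart at 0.13. In the authors' deposited values PKR2 2 was at 0.042, and WT 3 at 0.080 and WT 4 at 0.089 lay above it. The group means on the first scale were -0.042 ± 0.22 in PKR2 hearts and 0.043 ± 0.17 in WT hearts (SD, n = 4 each), a gap smaller than either SD.

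**Figure D4:**
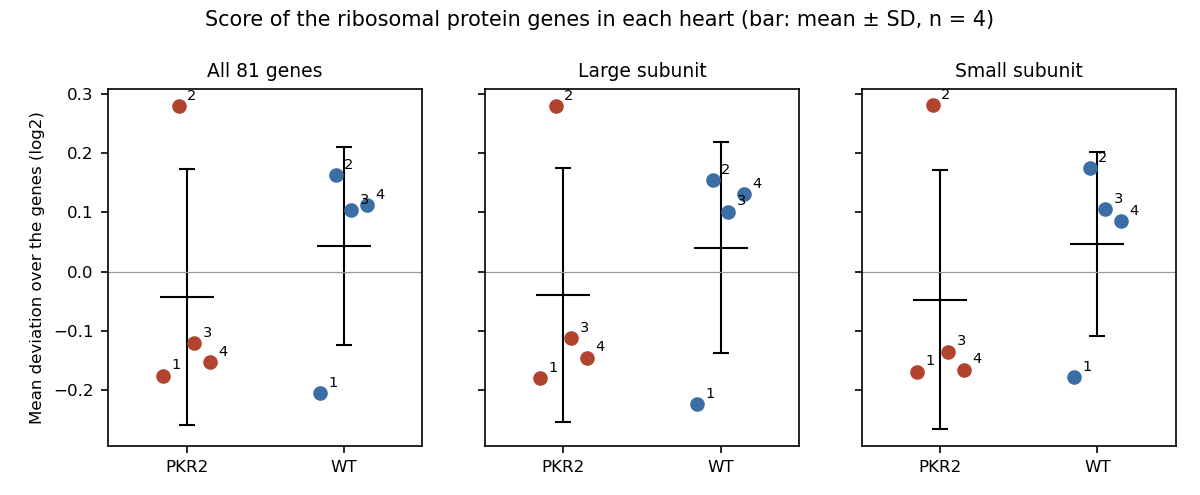
Mean deviation (log2) over all 81 genes, the 49 large-subunit genes and the 32 small-subunit genes in each PKR2 heart (left) and WT heart (right), numbered, with bars for mean ± SD, n = 4. PKR2 2 stands at 0.28 above the other PKR2 hearts and WT 1 at -0.21 below the other WT hearts. Under normexp background correction PKR2 2 is at 0.50 and WT 1 at -0.66, and the direction between the groups turns. After quantile normalization and in the authors' deposited values WT 4 is the highest heart.

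PKR2 2 was the highest heart in 36 members (44.4%, against 16.3% of all features) and WT 4 in 28 (34.6%, against 19.9%). The lowest heart was PKR2 1 in 19 members (23.5%, against 15.8% of all features), PKR2 3 in 12 (14.8%, against 6.43%), PKR2 4 in 12 (14.8%, against 7.13%) and WT 1 in 24 (29.6%, against 20.6%). A first principal component held 65.4% of the members' variance, with PKR2 2, WT 2 and WT 3 on one side. A second held 21.1% and set WT 4, at 0.89, apart from the other hearts. The first component of all features, 35.9% of their variance, put the same 3 hearts on one side.

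The hearts that were high in the members also differed in other measures. Rn18s and Lars2, put together in a list called rRNA-related probes, had a mean level of 8.82, 10.5, 8.57 and 8.28 in PKR2 hearts, against 9.35, 10.5, 9.82 and 5.73 in WT hearts. Whether the Lars2 probe reads rRNA was not tested. The Rn18s probe was not free of saturation on all 8 arrays, so its level can be a lower bound. Its difference of 0.21 was 0.49 on the brightest probe without saturation. Among the erythroid markers, the Hbb-b1 probe was not free of saturation either. The part of the rRNA-related probes in the result was not tested. Erythroid markers had a mean level of 6.73, 8.26, 6.20 and 7.05 in PKR2 hearts, against 7.37, 7.26, 6.70 and 6.60 in WT hearts, so PKR2 2 was the highest heart there too.

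PKR2 3 and WT 3 shared a slide, called slide 5 here, and PKR2 4 and WT 4 shared another, called slide 6. Within slide 5 the members had a median difference of -0.25, with 66 of 81 lower, where all features had a median of -0.016. Within slide 6 the median was -0.30, with 70 of 81 lower, where all features had a median of -0.065. Under normexp correction the member score was 0.26 in PKR2 3 and 0.47 in WT 3 on slide 5, and -0.32 in PKR2 4 and 0.060 in WT 4 on slide 6. Rps21 differed by -0.77 on slide 5 and by 0.27 on slide 6. Each value sets 1 heart against 1 heart and has no replicate of its own, and PKR2 2 was on neither slide.

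Genes with several probes allowed a check within the array. Of the 135 member probes 125 passed the filter on dim probes, and 6 were not above background on any array. The 125 had a median difference of -0.091 with 96 lower, though the brightest probes turned to higher values under normexp correction. Among 35 genes with several tested probes, 20 had probes of the same sign and 15 of both signs, and the largest spread within a gene was 0.51 (Rps21). The other probes had a median r of 0.65 with the brightest probe of their gene over the 8 arrays, and 5 of 44 had r below 0.

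Rps4x shows how far probes of a gene can part. Its brightest probe read 7.03, 7.94, 7.23 and 7.15 in PKR2 hearts, against 7.16, 7.98, 7.85 and 7.18 in WT hearts. Its other probe read -2.17, -0.21, -1.65 and -2.17 in PKR2 hearts, against -1.15, 0.62, 0.67 and -3.61 in WT hearts. Both were highest in PKR2 2, WT 2 and WT 3, but the second spanned several log2 units. The other Rpl21 probe read -1.19, -2.77, -1.71 and -2.18 in PKR2 hearts, against -1.24, -1.98, -1.59 and -0.92 in WT hearts, and was highest in WT 4, where the brightest probe was lowest.

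Further genes of protein synthesis were taken from lists. Gnb2l1, the ribosomal scaffold protein RACK1, lay outside the name pattern and read 7.17, 8.12, 7.41 and 7.35 in PKR2 hearts, against 7.11, 7.97, 7.97 and 7.44 in WT hearts. PKR2 2, WT 2 and WT 3 were again the highest hearts.

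Of 15 tested translation factors and other mRNAs with a TOP motif, 11 were lower with a median of -0.069 (0.41 under normexp correction), and 0 passed the test. Eef1a1, which brings aminoacyl-tRNA to the ribosome, read 6.08, 6.28, 6.41 and 6.40 in PKR2 hearts, against 6.28, 6.52, 6.64 and 6.31 in WT hearts. Eef1b2, its exchange factor, read 5.37, 5.05, 5.28 and 5.49 in PKR2 hearts, against 5.40, 5.26, 5.36 and 6.05 in WT hearts. Nap1l1, a histone chaperone, read 0.66, 0.82, 0.83 and 0.85 in PKR2 hearts, against 0.80, 0.77, 0.87 and 1.62 in WT hearts. WT 4 was far above the other WT hearts in Eef1b2 and Nap1l1, and the groups overlapped in all these genes. Their differences of -0.14, -0.22 and -0.22 turned to 0.42, 0.18 and 0.035 under normexp correction, and that of Eef1a1 to 0.0081 in the authors' deposited values.

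Ribosome biogenesis had 16 lower and 11 higher genes with a median of -0.023 (0.16 under normexp correction), and 0 passed the test. Dkc1, the pseudouridine synthase of the rRNA-modifying H/ACA particles, read -2.14, -2.03, -1.96 and -1.82 in PKR2 hearts, against -1.71, -1.76, -1.46 and -1.35 in WT hearts. Every PKR2 heart lay below every WT heart, as in 0.914% of all features. The difference was -0.42 with a limma adjusted p of 0.99997. Nob1, the nuclease that trims the end of 18S rRNA, read 0.80, 0.25, 0.43 and 0.50 in PKR2 hearts, against 0.51, 0.057, 0.21 and 0.080 in WT hearts. Polr1e, a subunit of RNA polymerase I, read 0.18, 0.0046, 0.14 and -0.19 in PKR2 hearts, against -0.11, -0.29, -0.096 and -0.21 in WT hearts. The groups overlapped for both, with differences of 0.28 for Nob1 and 0.21 for Polr1e, and that of Nob1 was -0.020 with array position as a covariate.

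Of 19 tested members of the mTORC1, MYC and TOP regulator list 11 were lower and 8 higher with a median of -0.053 (0.14 under normexp correction), and 0 passed. Tsc1, part of the complex that restrains mTORC1, had the smallest p of the list, 0.066 in limma before adjustment and 0.99997 after it. It read 0.61, -0.057, 0.28 and 0.36 in PKR2 hearts, against 0.074, -0.26, 0.069 and -0.17 in WT hearts. The difference was 0.37, and PKR2 2 lay among the WT hearts. Sesn2, an inhibitor of mTORC1, read 1.37, 1.49, 1.47 and 1.53 in PKR2 hearts, against 1.61, 1.67, 1.57 and 1.69 in WT hearts. Eif4ebp1, the translation repressor that mTORC1 switches off, read 4.61, 4.63, 4.26 and 4.10 in PKR2 hearts, against 4.76, 4.56, 4.58 and 4.65 in WT hearts. The groups overlapped for Eif4ebp1. For Sesn2 every PKR2 heart lay below every WT heart, as in 0.914% of all features. The differences of -0.17 for Sesn2 and -0.24 for Eif4ebp1 turned to 0.018 and 0.14 under normexp correction.

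Markers of other cells were read from the same fit. Adipocyte markers were lower in 10 of 10 tested genes with a median of -1.54, 7 of them at an unadjusted limma p under 0.05 and 0 past the adjusted threshold. Their mean level ran from 2.06 to 4.28 in PKR2 hearts and from 3.87 to 4.99 in WT hearts, with the lowest values in PKR2 1 and PKR2 2. Those hearts held the lowest and the highest member score of the PKR2 group. On slide 5 the adipocyte level was 4.28 in PKR2 3 and 3.87 in WT 3, and on slide 6 4.12 in PKR2 4 and 4.88 in WT 4. With slide as a fixed block the differences of Cidea, Pparg and Ucp1 were -0.54, -0.24 and -0.68, against -1.35, -0.70 and -2.65 without it. With the adipocyte score as a covariate, 74 of 81 members were lower with a median of -0.20. Endothelial, fibroblast and leukocyte markers had medians of -0.098, -0.036 and 0.029, which were 0.21, 0.30 and 0.30 under normexp correction. Cardiomyocyte markers were higher in 10 of 12 genes with a median of 0.067, and erythroid markers in 5 of 5 with a median of 0.10. The erythroid direction rested on PKR2 2 in the genes with the smallest p. Without that heart Hba-a2, Hbb-b1 and Slc4a1 were at -0.31, -0.21 and -0.49. Mesothelial markers were lower in 5 of 5 genes with a median of -0.30. Their mean level was 0.24, 0.41, 0.86 and 0.75 in PKR2 hearts, against 0.91, 0.80, 0.79 and 0.72 in WT hearts. On both shared slides the PKR2 heart thus lay above the WT heart. Msln turned to 0.15 under normexp correction and Krt19 to 0.019 with slide as a fixed block, while Muc16 stayed at -0.10 and -0.17. Schwann cell markers were lower in 4 of 5 with a median of -0.37, led by S100b with a difference of -1.06. None of these lists held a gene past the adjusted threshold.

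**Figure D5:**
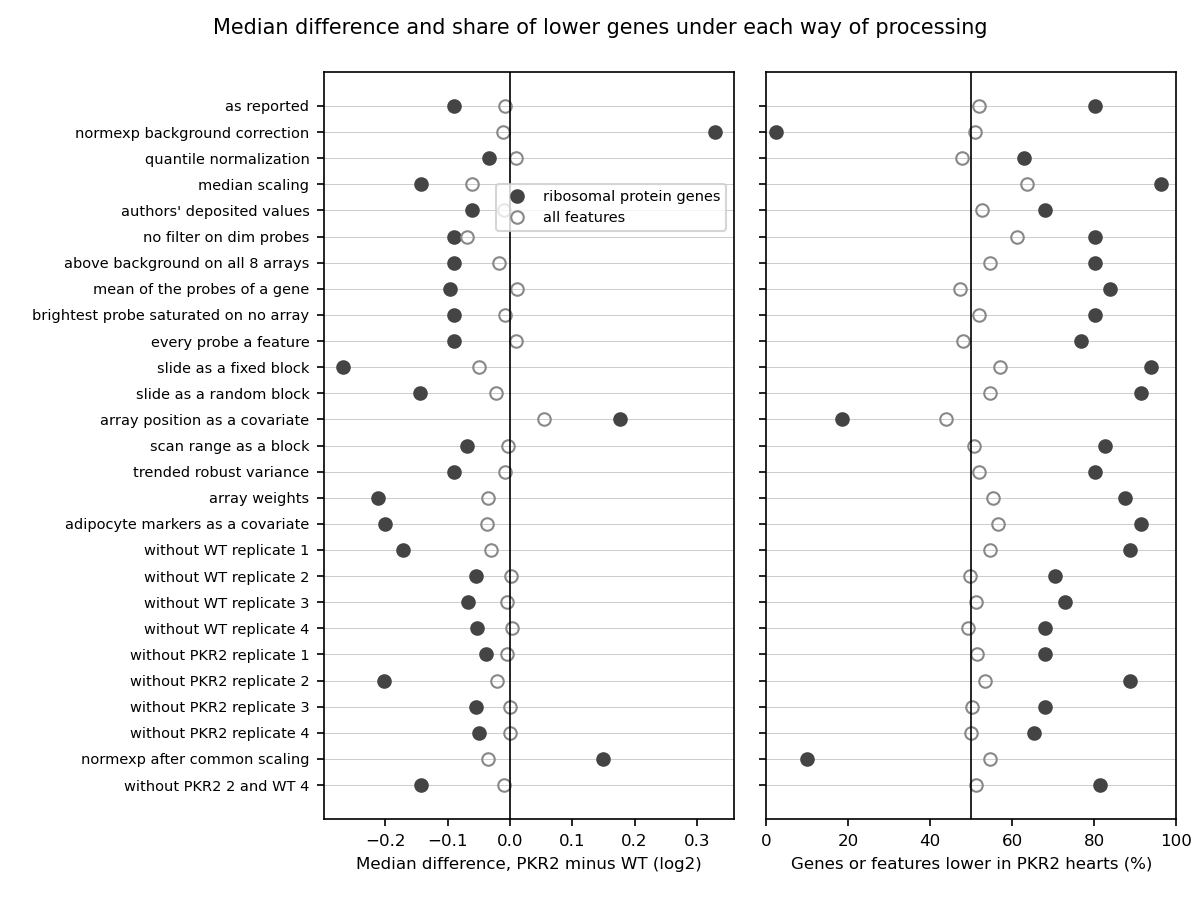
Left, median PKR2 minus WT difference (log2) over the members (filled) and over all features (open) under each way of processing. Right, the percent of members and of features that were lower in PKR2 hearts. The members' median lies between -0.27 and 0.33: it is above 0 under both forms of normexp correction and with array position as a covariate, and below 0 in the other settings.

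The direction of the members as a set thus differed between ways of processing. With array position as a covariate their median was 0.18 with 15 lower. The normexp setting took the mean spot signal in place of the processed signal and added an offset of 50, and what turned the direction was not tested. Their median was -0.090 with the scanner's own background subtraction, -0.061 in the authors' deposited values, -0.034 after quantile normalization and 0.33 after normexp correction with 2 of 81 lower. The median over all features stayed between -0.069 and 0.054 in every setting tried. In each of these settings 0 members passed the adjusted threshold.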

How the data were processed

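Agilent Feature Extraction 9.5.1.1 quantified the scans, with outlier flags, background subtraction and spatial detrending on each array, per the file headers. The deposited scanner values are linear spot intensity without normalization between arrays, and the deposited 0 or 1 flags mark spots above background, saturated or outlying. The authors also deposited normalized intensity, rounded to whole numbers, which served as an alternative. Its normalization is not given in the sources used here.

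Flagged and control spots were left out, processed signal was taken to log2, and each array's 75th percentile was subtracted. A feature entered the test if its brightest probe exceeded background clearly in 3 or more of the 4 arrays of either group. Rpl23 had a flagged spot on PKR2 2 and was fitted on the other 7 arrays. PKR2 and WT arrays were compared by lmFit and eBayes of limma 3.58.1 (R 4.3.3, two-sided, without covariates), with Benjamini-Hochberg adjustment over 15748 features. The fit was tested on simulated data with known changes. Data were handled with the R package data.table (version 1.17.8). The precision is limited by 4 arrays a group.

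The text names the 6 brightest and 6 dimmest members, the 6 per direction with the smallest p, the stalk genes, paralogue pairs and a short list of well-known members, and from other lists genes with the smallest p, of which some, like some members, are not reported here. The members and the lists were chosen with earlier results of these data known. Probe names are those of the array design, checked against RefSeq GRCm38.p6. Rpl39l, Rpl10l, Rps4l and the protein sequences were not analysed here. The alternatives were other background corrections, scalings, probe filters and probe rules, the authors' values, slide, array position, scan range and adipocyte markers in the model, array weights, another variance model and leaving out arrays. Normexp after common scaling and leaving out PKR2 2 with WT 4 were chosen after seeing the data.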

Additional observations from a re-analysis of the deposited data

Results flagged for a closer look

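A heart stood apart from the other 3 of its group, by Dixon's criterion at the 95% level, in 14 of the 82 groups of 4 hearts examined, where chance gives about 1 in 20. The criterion was met by all 3 scores of PKR2 2: 0.28 over all members, with the other PKR2 hearts between -0.18 and -0.12, 0.28 over the large subunit and 0.28 over the small subunit. PKR2 2 stood above the other PKR2 hearts in Rpl7a (9.28, the others 8.27 to 8.43), Rps2 (8.70, the others 7.76 to 7.81), Rplp2 (8.60, the others 7.96 to 8.05), Rpl11 (8.09, the others 7.36 to 7.45), Rps27 (7.84, the others 7.35 to 7.43) and Rpl22 (5.75, the others 5.04 to 5.08).

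WT 1 lay below the other WT hearts in the score over all members (-0.21, the others 0.10 to 0.16), in the large-subunit score (-0.22, the others 0.10 to 0.15), in Rpl22 (4.89, the others 5.38 to 5.46) and in Rpl32 (6.09, the others 6.63 to 6.74). PKR2 1 lay below the other PKR2 hearts in Rpl31 (-0.58, the others -0.27 to -0.21). Over all 81 members the criterion was met in 23 of 161 groups, 14 of them by PKR2 2. The share over all features was not computed, so this count does not set the members apart from other features. The genes share arrays and move together, so these are not separate events. The standing of both hearts depended on the scaling: for the score over all members, neither PKR2 2 nor WT 1 met the criterion under normexp correction, quantile normalization, median scaling or in the authors' deposited values. After quantile normalization PKR2 2 was at 0.025, with the other PKR2 hearts between -0.052 and -0.0051, and in the authors' values at 0.042, with the others between -0.076 and -0.037.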

How the results depend on the processing

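The median over the members was -0.090 and 65 of 81 were lower in PKR2 hearts. The median moved to 0.33 (2 lower) under normexp background correction, to 0.15 (8 lower) under normexp after common scaling, and to 0.18 (15 lower) with array position as a covariate, which sets the PKR2 arrays against WT 1 alone. Under the other alternatives it stayed below 0, and it moved by over 1.5 times with slide as a fixed block (-0.27), array weights (-0.21), the adipocyte covariate (-0.20), median scaling (-0.14), slide as a random block (-0.14), without PKR2 2 and WT 4 (-0.14) and after quantile normalization (-0.034). Leaving out 1 array gave -0.20 to -0.038, with 53 to 72 members lower. It was -0.20 without PKR2 2, -0.17 without WT 1, -0.038 without PKR2 1, -0.051 without PKR2 4, -0.053 without WT 4, -0.054 without PKR2 3 and -0.055 without WT 2. The cause was not tested. The span of the member score over the hearts was 0.49, and 1.16 under normexp correction, 0.18 after quantile normalization and 0.19 in the authors' deposited values. In all settings 0 members passed the adjusted threshold. Of all features, 0 passed, and 1 passed on probes above background on all 8 arrays, with slide as a random block, with a trended robust variance and without PKR2 3 (Anks1 each time), and with array position as a covariate (Fzd2); leaving out 1 array gave 0 to 1.

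Medians of other lists that moved under normexp correction were 0.35 for ribosomal proteins outside the pattern, 0.41 for translation factors, 0.16 for ribosome biogenesis, 0.14 for mTORC1, MYC and TOP regulators, 0.47 for cardiomyocyte markers, 0.21 for endothelial markers, 0.30 for fibroblast markers and -0.62 for Schwann markers. Without WT 4 translation factors were at 0.018 and Schwann markers at -0.22, and without PKR2 1 Schwann markers were at -0.14.

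No single named gene passed the adjusted threshold in any setting, and the differences whose sign turned are as follows. Under normexp correction they were Rplp1 0.42, Rpl7a 0.36, Rplp2 0.39, Rps23 0.23, Rps12 0.48, Rps2 0.34, Rpl21 0.15, Rpl10a 0.17, Rpl9 0.19, Rps16 0.20, Rps24 0.27, Rps21 0.15, Rps28 0.14, Rpl3l 0.39, Rpl22l1 0.080, Rps27l 0.47, Rpl3 0.34, Rpl22 0.48, Rps27 0.24, Rpl39 0.18, Rpl7 0.41, Rpl10 0.36, Rps4x 0.26, Rps6 0.30, Rps19 0.37, Rpl5 0.42, Rpl13a 0.21, Rpl32 0.32. Under normexp after common scaling they were Rplp1 0.23, Rpl7a 0.17, Rplp2 0.20, Rps23 0.042, Rps12 0.29, Rps2 0.15, Rpl21 0.0015, Rpl10a 0.011, Rpl9 0.0084, Rps16 0.012, Rps24 0.087, Rpl3l 0.21, Rps27l 0.29, Rpl3 0.17, Rpl22 0.30, Rps27 0.053, Rpl39 0.00024, Rpl7 0.23, Rpl10 0.18, Rps4x 0.073, Rps6 0.12, Rps19 0.19, Rpl5 0.24, Rpl13a 0.037, Rpl32 0.14. With array position as a covariate they were Rplp1 0.21, Rpl7a 0.30, Rps23 0.21, Rps12 0.086, Rps2 0.34, Rpl31 0.19, Rpl14 0.29, Rps15 -0.31, Rpl10a 0.16, Rps24 0.065, Rps28 0.22, Rpsa -0.10, Rpl4 -0.16, Rpl22l1 0.39, Rps27l 0.52, Rpl22 0.34, Rps27 0.10, Rpl39 0.62, Rpl7 0.39, Rpl10 0.29, Rps4x 0.17, Rps19 0.23, Rpl13a 0.0084, Rpl32 0.35. Quantile normalization gave Rpl7a 0.050, Rps2 0.0025, Rps27l 0.0091, Rpl3 0.0089, Rpl22 0.022, Rps19 0.022. Median scaling gave Rpl7l1 -0.018, Rps15 -0.050, Rpl19 -0.0086, Rpl4 -0.015, Rpl11 -0.036. The authors' deposited values gave Rps12 0.053, Rpl3l 0.0064, Rps27l 0.090, Rpl22 0.085. The mean of a gene's probes gave Rps2 0.036, Rpl11 -0.12. With slide as a fixed block they were Rpl21 0.50, Rps15 -0.16, Rpsa -0.046, Rpl19 -0.13, Rpl4 -0.080, Rpl11 -0.23, and as a random block Rpl21 0.071, Rps15 -0.051, Rpl19 -0.015, Rpl4 -0.0023, Rpl11 -0.066. Scan range as a block gave Rps15 -0.012, Rpl11 -0.0020, array weights gave Rps15 -0.0080, Rpl5 0.075, Rpl11 -0.28, and the adipocyte covariate gave Rps15 -0.16, Rpsa -0.11, Rpl4 -0.089, Rpl5 0.065, Rpl11 -0.28. Without PKR2 2 and WT 4 they were Rps6 0.018, Rpl5 0.16, Rpl11 -0.23. Leaving out 1 array gave ranges of Rpl19 -0.030 to 0.16, Rpl3l -0.27 to 0.023, Rpl11 -0.15 to 0.13, Rplp1 -0.18 to 0.11, Rpl7a -0.24 to 0.15, Rps12 -0.17 to 0.042, Rps2 -0.24 to 0.13, Rpl7l1 -0.016 to 0.13, Rpl21 -0.68 to 0.29, Rps15 -0.13 to 0.11, Rpl4 -0.091 to 0.17, Rps27l -0.23 to 0.063, Rpl22 -0.21 to 0.022, Rpl7 -0.27 to 0.043, Rpl3 -0.13 to 0.023, Rpl10 -0.28 to 0.044, Rps19 -0.14 to 0.024, Rpl5 -0.16 to 0.092, Rpsa -0.0071 to 0.22, Rpl32 -0.25 to 0.0036. The other filters and the other variance model turned no sign among the named genes. The 75th percentile of signal ran from 38.1 on WT 2 to 736 on PKR2 1, which limits what dim probes can show. No paired analysis was possible because the labels number no replicates (the numbers used here follow the order of the samples), and only slides 5 and 6 held an array of each group. The fit with slide as a fixed block, above, rests on those 2 slides.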

Other observations

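WT 4 was the highest heart in some ribosomal protein genes, such as Rpl10a at 3.93, and the lowest in others. Rps20, a small-subunit head protein, read 7.77, 8.50, 7.88 and 7.82 in PKR2 hearts, against 7.72, 8.41, 8.25 and 7.45 in WT hearts, with WT 4 the lowest. These genes were chosen after their values were seen. The second principal component of the members, on which WT 4 stood at 0.89, held 21.1% of their variance. WT 4 also had the lowest mean level of Rn18s and Lars2, the list called rRNA-related probes, 5.73. What links these values was not tested.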
